A study of Mus musculus with 2 samples.

Results

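The clustered histone genes of the mouse were examined in single muscle stem cells (MuSCs). Members were the genes whose Gencode vM21 symbol starts with Hist1h, Hist2h, Hist3h or Hist4h, with pseudogenes that carry the ending -ps left out, which gave 69 of the 55450 genes in that annotation. They comprised 6 genes for the linker histone H1, 20 for H2A, 18 for H2B, 12 for H3 and 13 for H4. Clusters were taken from the number in the symbol. Cluster 1 on chromosome 13 held 56 members by this rule, cluster 2 on chromosome 3 held 10, cluster 3 on chromosome 11 held 2 and cluster 4 on chromosome 6 held 1. By position Hist1h2al, at chr13:51202727-51203065, lay far from the other members of cluster 1, which lay between 21715763 and 23934851. Gencode classed 67 as protein coding, Hist1h2aj as an unprocessed pseudogene and Hist1h2al as a processed pseudogene.

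The cells came from Pax7creERT2 R26-eYFP fl/fl mice on a C57BL6 background, which received tamoxifen daily for 5 days at 3 months of age. Cre was driven by Pax7, so YFP marked cells that had expressed Pax7 when tamoxifen was given. Cells were sorted on YFP from hindlimb muscle that was uninjured (quiescent MuSCs) or had been injected with 1.2% barium chloride 72 hours earlier (activated MuSCs). Both kinds entered 1 droplet capture with poly(A) priming, of which 10% was read with short and with nanopore long reads and 90% with short reads alone. The tables do not carry the origin of a cell, so quiescent and activated cells are not compared by label here, and there is no replicate of either aliquot.

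Replication-dependent histone genes are transcribed in large amounts during S phase, when new DNA is packed around octamers of H2A, H2B, H3 and H4 and the linker H1 closes the nucleosome. Their mRNAs are the known exception among animal mRNAs in that they usually end just after a short stem-loop and carry no poly(A) tail. The stem-loop is bound by the protein SLBP, and the U7 snRNP directs the cleavage after it. Some of these genes also give longer, polyadenylated transcripts, which are known mainly from cells that have left the cell cycle. Capture by poly(A) priming therefore does not see all histone mRNA, and the levels given here are those of the captured part.

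The stem-loop is shown because it is where a replication-dependent mRNA ends. It was searched on the transcribed strand of the Gencode vM21 transcripts as a run of 16 bases with a paired stem and a pyrimidine-rich loop, and 38 of the 69 members held it, against 153 of 58725 other coding transcripts (0.261%). By type, 3 H1, 11 H2A, 8 H2B, 5 H3 and 11 H4 genes had a match. The form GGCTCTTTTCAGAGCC occurred in 26 members and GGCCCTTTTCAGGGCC in 7. In a gene without a match, these letters were not found in the annotated transcript, which may stop before them. The following are the 30 bases that end with the stem-loop, 5′ to 3′ on the gene's strand (mm10, GRCm38), with the stem-loop in capitals, for the H2A gene with the most unique molecular identifiers (UMIs) and for members whose models differ in how far they go on after it.
Hist1h2ap, chr13:21833029-21833058, minus strand: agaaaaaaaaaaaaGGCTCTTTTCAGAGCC
Hist1h2ao, chr13:21810884-21810913, plus strand: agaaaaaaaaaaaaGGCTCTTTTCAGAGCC
Hist1h2ag, chr13:22042483-22042512, minus strand: tgatcgccaacaaaGGCTCTTTTCAGAGCC
Hist1h2ac, chr13:23683477-23683506, minus strand: acttcaaacccaaaGGCTCTTTTCAGAGCC
Hist3h2a, chr11:58955158-58955187, plus strand: ttacagacaccaaaGGCTCTTTTCAGAGCC
Hist1h1c, chr13:23739498-23739527, plus strand: ctaacaatccaaaaGGCTCTTTTCAGAGCC
Hist1h4i, chr13:22040966-22040995, minus strand: caatgctacttaaaGGCCCTTTTTAGGGCC
Hist2h3c2, chr3:96238485-96238514, minus strand: ccattccccacaaaGGCTCTTTTCAGAGCC

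The annotated models ended at different distances from the stem-loop. In 18 members the end lay within 100 bases of it, as in Hist1h2ap, whose model ran 3 bases past it. In 18 others the longest model ran over 100 bases past, by 2010 bases in Hist1h2ac, 1643 in Hist3h2a, 840 in Hist1h1c and 330 in Hist1h4i. A further 5 members had an intron in the annotation and 28 had no match. Of the 69 members, 64 had models of 1 exon only.

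A run of 10 or more adenines lay within the annotated transcript of 4 members. In Hist1h2ap and Hist1h2ao the run had 12 adenines and stood directly before the stem-loop, as the first lines above show. In Hist1h2ac it had 15 and in Hist1h2be 11, and in both it lay beyond the stem-loop. The 4 members had a median of 111 UMIs per 1000000 UMIs of the table (CPM) in the 10% short-read table and 40.9 CPM in the 90% table, and the 59 members whose longest run was under 7 had medians of 5.76 and 3.84 CPM. Hist1h2be was the lowest of the 4, at 6.35 and 4.05 CPM. The 6 members whose longest run was 7 to 9 had medians of 5.91 and 6.03 CPM. Among H2A genes the 3 with a run of 10 or more had medians of 121 and 57.7 CPM and the other 17 had 11.7 and 5.89 CPM, but Hist1h2ah, with 314 and 178 CPM, had no run longer than 2. Whether priming within the transcript contributed to any level was not tested.

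RefSeq promoter windows (GRCm38.p6, 250 bases before to 50 after each start) were found for 62 of the 69 members, and the 250 bases before the start were searched. CCAAT, on either strand, was present in 82.3% of members and in 37.5% of the 27025 genes with a window. It was in all 6 H1, all 18 H2A and all 16 H2B windows, in 80% of the 10 H3 and in 25% of the 12 H4 windows. TATAAA, on the gene's strand, was present in 38.7% of members against 8.94% of genes. The octamer ATTTGCAT, on either strand, was present in 22.6% of members against 1.81% of genes, in 38.9% of H2A and 43.8% of H2B windows and in 0 of the 6 H1, 10 H3 and 12 H4 windows. The 120 bases before the RefSeq start are shown for the 2 H2A genes with the most short-read UMIs and for Hist3h2a of cluster 3, which the long reads listed, with CCAAT or its complement ATTGG and the complement of the octamer in capitals. A match describes the letters only.
Hist1h2ap, chr13:21833476-21833595, minus strand: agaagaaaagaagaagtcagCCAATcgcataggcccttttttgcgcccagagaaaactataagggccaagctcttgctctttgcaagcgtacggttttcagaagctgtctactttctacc
Hist1h2ah, chr13:22035644-22035763, minus strand: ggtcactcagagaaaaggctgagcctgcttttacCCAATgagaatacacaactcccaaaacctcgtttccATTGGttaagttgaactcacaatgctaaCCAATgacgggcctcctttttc
Hist3h2a, chr11:58954565-58954684, plus strand: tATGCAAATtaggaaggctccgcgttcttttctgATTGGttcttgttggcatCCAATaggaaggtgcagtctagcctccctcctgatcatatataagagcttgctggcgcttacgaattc

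The tables held 6772259 short-read UMIs for the 10% aliquot, 39044129 for the 90% aliquot and 8297203 long-read UMIs for the 10% aliquot. The aliquots did not hold separate sets of barcodes: all 79 barcodes with at least 20000 UMIs in the 10% table were also listed in the 90% table, 76 of them with at least 20000 UMIs there. Each of these 76 correlated best with its own barcode in the other table over 3000 genes (76 of 76, median r 0.961 against 0.851 with other barcodes). Of the 606 barcodes of that depth in the 90% table, 207 were listed in the 10% table, so values for the 90% table are also given for the other 399. The study describes a split of the droplets, which would not by itself put 1 barcode in both aliquots, and whether the 2 short-read libraries share reads was not tested. Pax7 and Myod1 were present in the deep barcodes of both tables, at 12.2 and 185 CPM in the 10% and 7.80 and 213 CPM in the 90% table. All intervals below are exact 95% intervals of the summed UMIs and cover counting error only. With 1 capture and with cells that are not replicates, no test between classes of cells was possible.

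The captured histone mRNA was mostly H2A. Members summed to 16868 UMIs or 2491 CPM (2453 to 2529) in the 10% short-read table and to 47205 UMIs or 1209 CPM (1198 to 1220) in the 90% table, so that the sum was higher in the smaller aliquot. H2A genes made up 84.6% and 73.2% of these UMIs in the 10% and 90% tables, H2B genes 6.66% and 10.7%, H4 genes 3.85% and 7.61%, H1 genes 2.99% and 4.66% and H3 genes 1.92% and 3.81%. Members of cluster 1 by symbol, Hist1h2al included, held 97.7% and 95.8% of them. The nucleosome holds the core histones in equal numbers, so the shares describe what was captured and counted, not histone synthesis.

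The 10% table listed 64 members and that of the 90% aliquot 67. Hist2h2aa1 and Hist2h3c1 were in none of the tables, and share 88.3% and 33.2% of their windows of 91 bases with Hist2h2aa2 and Hist2h3c2, while of the known germ-line forms Hist1h1t and Hist1h2aa had 1 and 2 UMIs in the 90% table. The testis H2B gene Hist1h2ba was counted in both, with 33 UMIs (4.87 CPM) in the 10% and 232 UMIs (5.94 CPM) in the 90% table. Of the members listed, 52 had at least 20 UMIs in the 10% table and 64 in the 90% table.

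Among the core genes for H2A, which with H2B forms the outer dimers of the octamer, Hist1h2ap had the highest level, with 799 CPM in the 10% and 243 CPM in the 90% table. Hist1h2ah followed with 314 and 178 CPM, Hist1h2ag with 218 and 104 CPM and Hist1h2aj with 199 and 116 CPM. Hist1h2ak had 79.3 CPM in the 10% but 5.53 CPM in the 90% table. The H2A order therefore differed between the tables below the first genes.

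Outside H2A, the highest level was that of the H2B gene Hist1h2bc, with 86.1 and 66.9 CPM in the 10% and 90% tables. The H4 gene Hist1h4i had 23.2 and 31.4 CPM, and a second H2B gene, Hist1h2bq, 20.4 and 15.8 CPM. Among linker histone genes, Hist1h1e had 30.4 and 17.1 CPM, Hist1h1b 24.4 and 13.6 CPM and Hist1h1c 10.0 and 17.9 CPM. H3 forms with H4 the inner tetramer, and its highest gene was Hist2h3c2 with 11.5 and 10.8 CPM. Hist1h4i and Hist1h1c were thus higher in the 90% table. Counting leaves some of these values uncertain: 26 members share over 50% of these windows with other members, Hist1h2ap 92.3% with Hist1h2ao, and 23 overlap an annotated gene on the opposite strand, with no statement in the sources used here of whether strand was counted.

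**Figure D1:**
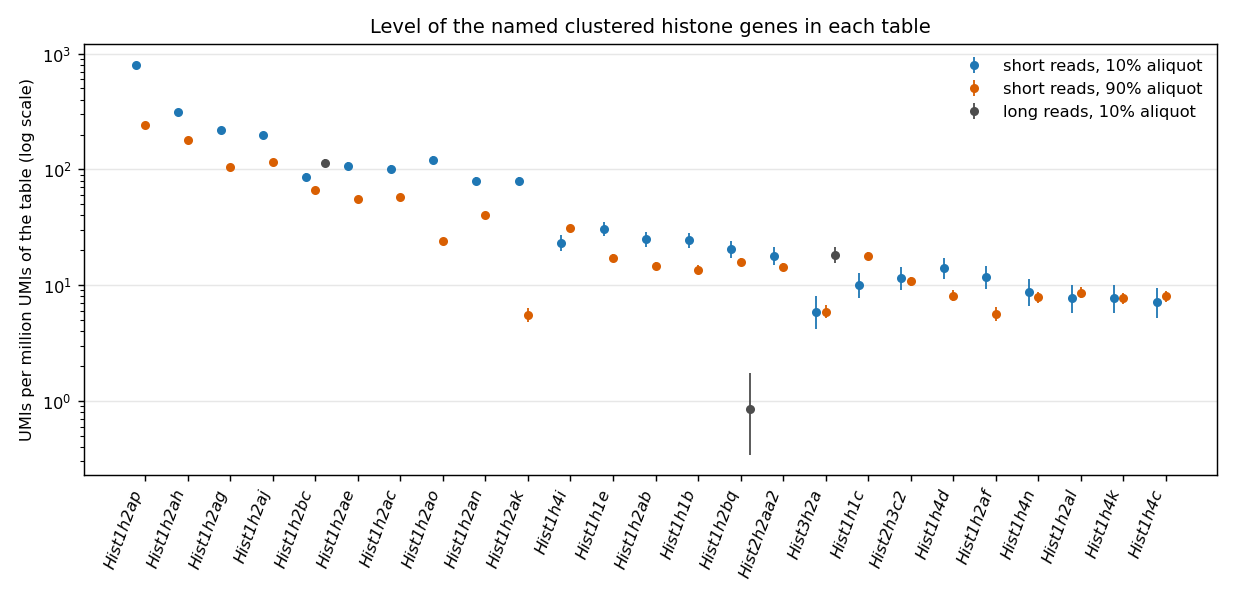
Level of the 25 clustered histone genes with the highest mean CPM over the 3 tables, as CPM on a log scale, with exact 95% intervals as bars; a value of 0 is not drawn. Hist1h2ap sits highest in both short-read tables, and only Hist1h2bc, Hist1h2bq and Hist3h2a have a long-read point.

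The difference between the tables shrank when the same barcodes were compared. Over the 76 barcodes that were deep in both, members summed to 2612 CPM in the 10% and 2330 CPM in the 90% table, a ratio of 1.12 (1.09 to 1.15). Of 57 members with at least 20 UMIs over both tables, 4 differed at least 2-fold, or 7.02%, beside 4.16% of the 10990 genes tested. The 4 were Hist1h2ak, Hist1h2ao, Hist1h2ai and Hist1h3a, which were named after their values were seen.

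Hist1h2ak had 427 UMIs (84.8 CPM) in the 10% and 46 UMIs (10.5 CPM) in the 90% table, a ratio of 8.11 (5.97 to 11.2) in the same barcodes. Hist1h2ao had 128 and 53.7 CPM, 2.38-fold (2.04 to 2.77), and Hist1h2ap had 869 and 594 CPM, 1.46-fold (1.39 to 1.54). Other abundant members were nearly equal or lower in the 10% table: the ratio was 1.04 (0.92 to 1.17) for Hist1h2ae, 0.96 (0.83 to 1.11) for Hist1h2bc, 0.99 (0.77 to 1.29) for Hist1h1b and 0.83 (0.77 to 0.88) for Hist1h2ah. Hist1h2ak and Hist1h2ao thus differed between the tables also in the same barcodes. How reads of near-identical genes were assigned is not given in the sources used here, and its part in these ratios was not tested.

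**Figure D2:**
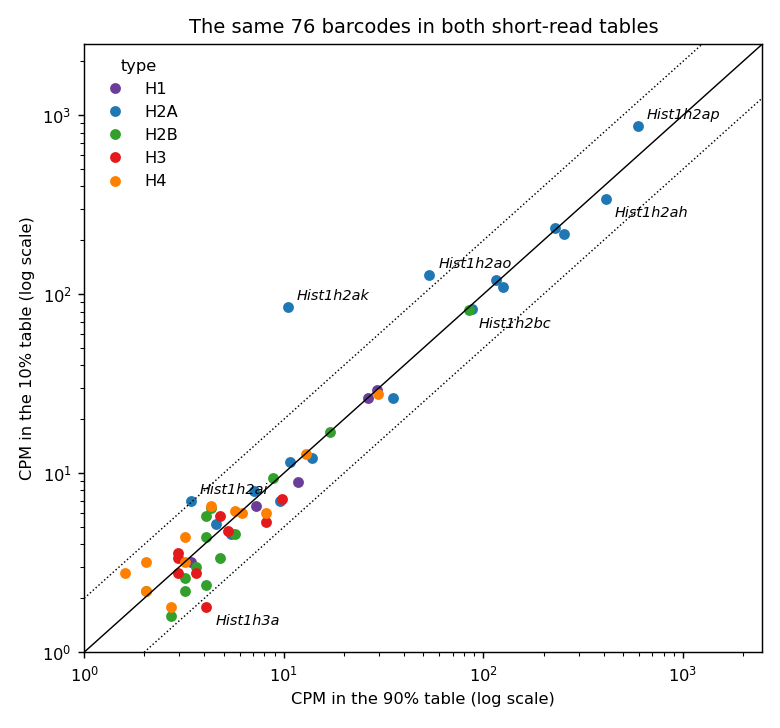
Level of each of the 57 clustered histone genes with at least 20 UMIs in the same 76 barcodes, in the 90% table (x, log scale) and the 10% table (y, log scale), coloured by histone type, with the line of equality and dotted lines at 2-fold. Most genes lie between the dotted lines, and Hist1h2ak lies 8.11-fold above equality.

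Long reads of the 10% aliquot gave a different set of members. They summed to 1110 UMIs or 134 CPM (126 to 142), 0.0537 of the short-read level of all members, and came from 4 genes. With all members kept, but only UMIs of genes listed in both tables as the total, the ratio was 0.0315. Hist1h2bc had 950 UMIs (114 CPM), Hist3h2a 151 (18.2 CPM), Hist1h2bq 7 and Hist1h2br 2. No H1, H3 or H4 gene and no other H2A gene was listed. Since the count table was filtered, their absence sets no limit on their level. Hist1h2ap, at 799 CPM in the short reads of the same aliquot, was among the genes not listed.

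Nearly all members without a counted isoform had no intron. Of 52 members with at least 20 short-read UMIs in the 10% table, 48 had no counted isoform, or 92.3%, beside 18% of the 10412 genes of that depth. Of the 48 members with 1 exon, 1 was listed (2.08%, 0.0527 to 11.1), and of the 4 with an annotated intron 3 were. Other coding genes behaved alike in direction: 15 of 156 with 1 exon were listed (9.62%, 5.48 to 15.4) against 8327 of 8434 with an intron (98.7%, 98.5 to 99.0). The table was filtered by the authors on full-length support and transcript coverage, and the part of each step in these absences was not tested.

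Of the 5 counted isoforms of members, 3 had an exon structure in the deposited annotation and were spliced, and those of Hist1h2bq and Hist1h2br had no entry there. The Hist1h2bc isoform spanned chr13:23684199-23692480 on the plus strand and had UMIs in 274 barcodes. Its CPM was also higher in long than in short reads (114 and 86.1 CPM). Over the 4 members with an intron the long-read level was 0.976 of the short-read level, while it was 0.00774 for the members with 1 exon. Other coding genes had higher ratios in both groups, 1.93 with an intron and 0.0278 with 1 exon. Hist3h2a, the H2A gene of cluster 3, had an isoform of 137 UMIs that spanned chr11:58954685-58959823 and one of 14 UMIs that ended at 58958149. Their ends lay 4636 and 2962 bases past its stem-loop in the genome, introns included. Whether the spliced RNA holds the stem-loop was not examined. The first exon of Hist3h2a overlaps the gene Trim17 on the same strand, so reads from the pair cannot be told apart by position alone.

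A stem-loop position was available for Hist3h2a only among the counted members. Its 151 of 151 UMIs (100%) were on the spliced isoforms above, both ending over 30 bases beyond it in the genome. This share was set by which isoforms of 1 gene were counted, so it gives no estimate for histone mRNA. The annotated Hist3h2a isoform of 1 exon, with 214 supporting reads, was not in the count table. The other 959 UMIs were from H2B genes without a match in the models. The deposited isoform annotation held another set, with 12 isoforms of 7 members with 3230 supporting reads, of which 3 isoforms were in the count table. The 6 isoforms with 1 exon, with 1372 reads, were not. Of the 1491 annotation reads on members with a stem-loop match, 904 (60.6%, 58.1 to 63.1) were on isoforms ending over 30 bases past it, and the remaining 587 were on a Hist1h4b isoform that ended 28 bases past.

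Levels by cell cycle stage were compared with a score that uses no member. In the barcodes of at least 20000 UMIs, the CPM of Mcm5 and Mcm6 (subunits of the replicative helicase), Pcna (the polymerase clamp) and Tyms (thymidylate synthase) were summed, and the barcodes of each table were cut into 3 classes of nearly equal size by this S score. A class of this kind is a range of cells, not a cell type: 62 and 102 of the 606 barcodes of the 90% table lay within 20% of the lower and the upper cut, and 9 and 18 of 79 in the 10% table.

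Histone UMIs were several-fold higher in the class with a high S score. The sum over members in the 90% table was 456 CPM in the low, 1253 in the middle and 2035 in the high class (202 barcodes each), 4.47-fold from low to high (4.32 to 4.62). In its 399 barcodes that were not in the 10% table the same cuts gave 477 and 1815 CPM, 3.80-fold (3.65 to 3.97). In the 10% table the sums were 752, 2544 and 3871 CPM (27, 26 and 26 barcodes), 5.15-fold (4.82 to 5.50). The 5 barcodes with the most member UMIs held 57.9%, 67.3% and 64.7% of the UMIs of these 3 classes in the 10% table and 16.0% to 18.8% in the 90% table, so the 10% sums rest on few cells. With a score of Mcm2, Mcm3, Mcm4 and Rrm2 the ratio in the 90% table was 2.51, and with classes cut at the median 2.88.

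Other genes also differed between these classes. In the 90% table Myog, a regulator of muscle differentiation, had 145 CPM in the low and 33.6 CPM in the high class, and the 7 genes of the myofibre list summed to 137 and 32.2 CPM, with 7 and 5 of them present. The fibroadipogenic list summed to 102 and 66.1 CPM (5 of 7 genes in both), the immune list to 9.74 and 3.93 CPM (6 and 9 of 9) and the quiescence list to 54.8 and 34.5 CPM (7 of 7 in both). The activation list, which holds Myog, went the other way, at 481 and 968 CPM. Myog had 84.9 and 18.9 CPM in the 10% table, the myofibre list 68.5 and 16.4 CPM and the fibroadipogenic list 135 and 47.6 CPM. The part of these differences in the histone ratios was not tested.

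Single barcodes varied widely within each class. In the 90% table the median over barcodes was 286, 546 and 1499 CPM in the low, middle and high class, and the middle 50% of the high class ranged from 418 to 2730 CPM. In the 10% table the medians were 470, 1059 and 1116 CPM. Across barcodes, Spearman's rho between the S score and the summed members was 0.42 over 79 barcodes, 0.47 over 606 and 0.47 over the 399, given as a description since each pair of values shares a cell and its depth. Median depth also differed between the classes, from 42332 to 52313 UMIs in the 90% and from 43622 to 75823 in the 10% table. With each barcode thinned to 3000 UMIs, the share with a member UMI in the 90% table was 62.9%, 77.7% and 90.1% from low to high (96.5%, 99.5% and 100% before thinning). In the 10% table it was 70.4%, 80.8% and 76.9%, with overlapping intervals.

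**Figure D3:**
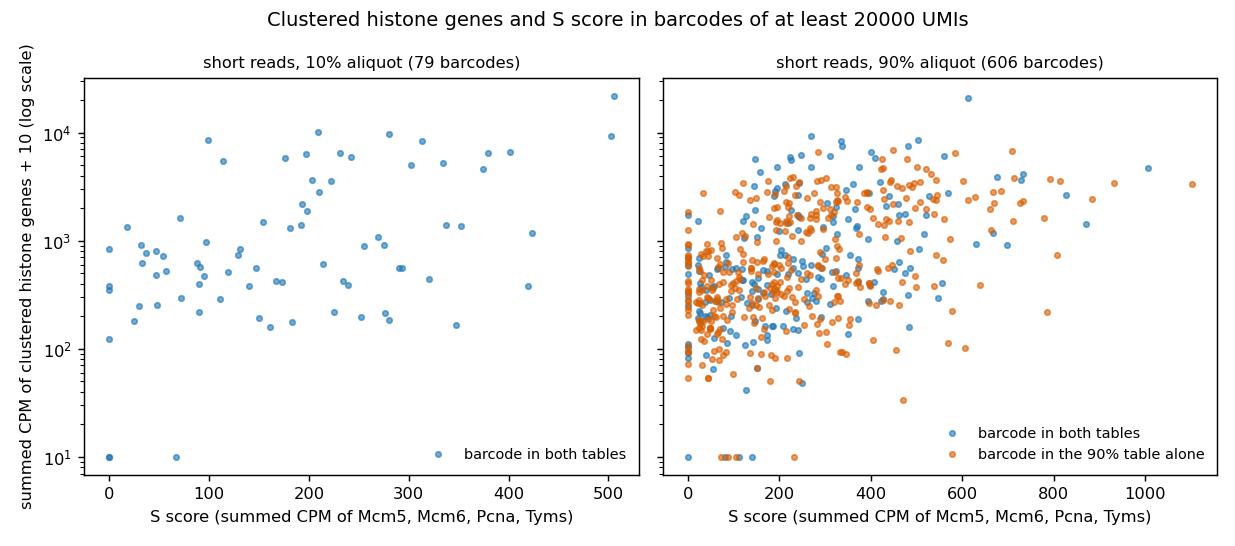
Summed CPM of the clustered histone genes plus 10 (y, log scale) against the S score (x, summed CPM of Mcm5, Mcm6, Pcna and Tyms) in each barcode of at least 20000 UMIs, by whether the barcode is in both short-read tables. The high class has a median of 1499 CPM in the 90% table against 286 CPM in the low class. Single barcodes reach 21552 CPM in the 10% and 20959 CPM in the 90% table.

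Summed by type, H2A differed most between the S score classes and H2B least. H2A had 231 CPM in the low and 1610 in the high class of the 90% table (6.96-fold, 6.64 to 7.29) and 494 and 3455 CPM in the 10% table (7.0-fold, 6.46 to 7.59). H1 was 3.20-fold higher (2.77 to 3.70) in the 90% and 5.35-fold (3.60 to 8.24) in the 10% table, H3 3.19-fold (2.70 to 3.78) and 4.86-fold (2.81 to 8.98), and H4 2.66-fold (2.38 to 2.97) and 2.55-fold (1.91 to 3.46). H2B was 1.13-fold higher (1.05 to 1.23) in the 90% table, at 129 and 146 CPM, and lower in the 10% table, at 182 and 137 CPM (0.75-fold, 0.63 to 0.90). In barcodes of the 90% table alone H2A was 5.52-fold higher (5.22 to 5.83), an interval below that of the whole 90% table. H1 was 2.81-fold, H3 3.12-fold, H4 2.73-fold and H2B 1.25-fold higher (1.13 to 1.37) in those barcodes. H2A therefore went from 50.8% to 79.1% of all member UMIs between the low and the high class of the 90% table, and H2B from 28.3% to 7.18%. A single gene, Hist1h2bc, held 848 of the 1136 H2B UMIs in the low and 574 of 1561 in the high class of that table. In the 10% table it held 181 of 244 and 105 of 267, so the H2B sums do not describe the other H2B genes.

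**Figure D4:**
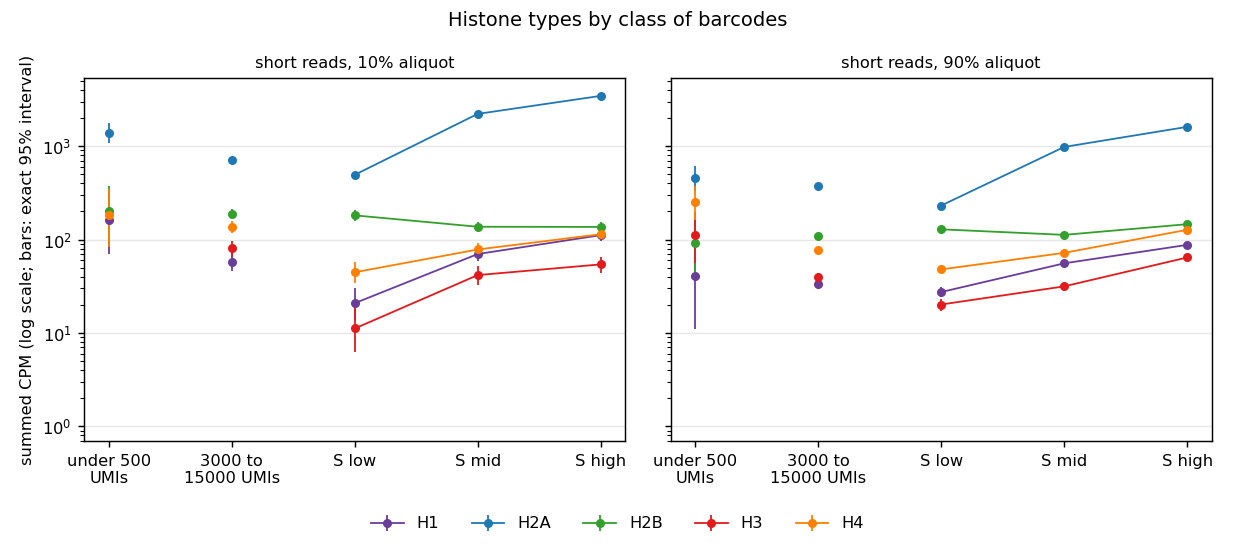
Summed CPM of each histone type (log scale, exact 95% intervals as bars) in barcodes of under 500 UMIs, of 3000 to 15000 UMIs and in the 3 S score classes of the barcodes of at least 20000 UMIs, in each short-read table; H3 under 500 UMIs in the 10% table was 0 and is not drawn. H2A goes from 231 to 1610 CPM across the S score classes of the 90% table, and H2B from 129 to 146 CPM.

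Most members shared this direction. Of 62 members with at least 20 UMIs over both classes of the 90% table, 52 were at least 2-fold higher in the high class, beside 7.15% of the 12915 genes tested, and 0 were at least 2-fold lower, beside 6.66%. The median ratio was 4.2 for members and 1.01 for all genes. In the barcodes of the 90% table alone 51 of 60 members were higher (7.63% of genes) and 0 lower (6.17%). The 10% aliquot had 21 of 30 higher (11.5% of genes) and 3 lower (7.35%), with a median ratio of 4.95 beside 1.07. With a minimum of 10 or 50 UMIs 33 or 13 were higher, and the share of genes at these minima is not given here. The interval of the ratio lay above 1 for 55 of 62 members in the 90% table.

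The linker histone Hist1h1b, a replication-dependent H1, had the highest ratio among tested members by point estimate only. It had 2.83 CPM in the low, 14.7 in the middle and 27.6 in the high class of the 90% table (9.75-fold, 6.47 to 15.3). In the 10% table it had 2.23, 22.8 and 45.0 CPM, with only 3 UMIs in the low class (20.2-fold, 6.67 to 99.6). Hist1h1e was likewise higher, at 3.74 and 28.1 CPM in the 90% table (7.51-fold, 5.23 to 11.1). Hist1h1c was not, at 18.7, 17.2 and 18.1 CPM from the low to the high class (0.97-fold, 0.78 to 1.20). Of the 5 H1 genes tested in the 90% table, 4 were thus at least 2-fold higher and Hist1h1c was level.

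Hist1h2ap had 50.3, 287 and 447 CPM in the low, middle and high class of the 90% table (8.89-fold, 8.07 to 9.82) and 155, 848 and 1349 CPM in the 10% table (8.71-fold, 7.56 to 10.1). Hist1h2ah was 8.50-fold higher (7.61 to 9.52) in the 90% and 7.64-fold (6.17 to 9.56) in the 10% table. The intervals of these genes and of Hist1h1b overlapped in both tables, so their order is not resolved. The share of barcodes with a Hist1h2ap UMI, after thinning to 3000 UMIs, was 12.9% in the low and 49.5% in the high class of the 90% table (47.5% and 85.6% before).

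For H3 and H4 the counts were lower and the ratios smaller. Hist2h3c2 had 2.72 and 14.1 CPM in the low and high class of the 90% table (5.20-fold, 3.36 to 8.36) and Hist1h4d 2.72 and 12.2 CPM (4.47-fold, 2.88 to 7.23). Hist1h4i, the H4 gene with the most UMIs, had 28.1 and 44.8 CPM (1.60-fold, 1.37 to 1.87). It was therefore higher in the high class but under the 2-fold limit.

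Hist1h2bc was the only member whose interval lay below 1 in the 90% table. In the barcodes of that table alone 2 members had such an interval. The level of Hist1h2bc was 96.1, 66.6 and 53.7 CPM from the low to the high class of the 90% table (0.56-fold, 0.50 to 0.62), 0.64-fold in the barcodes of that table alone, and 135, 71.1 and 53.7 CPM in the 10% table (0.40-fold, 0.31 to 0.51). The long reads of the same 10% barcodes gave 213 and 69.4 CPM (0.33-fold, 0.26 to 0.40), and since Hist1h2bc made up most of the long-read UMIs the long-read sum was also lower in the high class, 0.40-fold (0.33 to 0.48), but 1.31-fold without Hist1h2bc. Medians over barcodes were 44.7, 29.1 and 31.4 CPM in the 90% table. The barcode with the most Hist1h2bc UMIs held 29.3% of those of the low class in the 10% table and 5.19% in the 90% table. After thinning to 3000 UMIs, 26.7% (20.8 to 33.4) of barcodes in the low and 18.3% (13.2 to 24.4) in the high class of the 90% table had a Hist1h2bc UMI, with overlapping intervals, and 70.3% in both before thinning.

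A few other members were level or differed between the tables. Hist3h2a had 6.69 and 6.64 CPM in the low and high class of the 90% table (0.99-fold, 0.69 to 1.43). Hist1h2al, the processed pseudogene, was at 8.16 and 6.93 CPM there (0.85-fold, 0.61 to 1.19) but at 11.2 and 3.07 CPM in the 10% table (0.27-fold, 0.09 to 0.75). Hist2h2aa2 was 1.31-fold (1.00 to 1.73) in the 90% and 0.47-fold (0.25 to 0.87) in the 10% table. These 2 and Hist1h2bc were the 3 members at least 2-fold lower in the 10% table, where the low class also held 392 CPM of the immune marker list, of which 1 barcode held nearly all (6.82 CPM without it), against 4.09 CPM in the high class. Without that barcode the summed ratio in the 10% table was 5.06 and the low class had 137 CPM of Hist1h2bc.

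**Figure D5:**
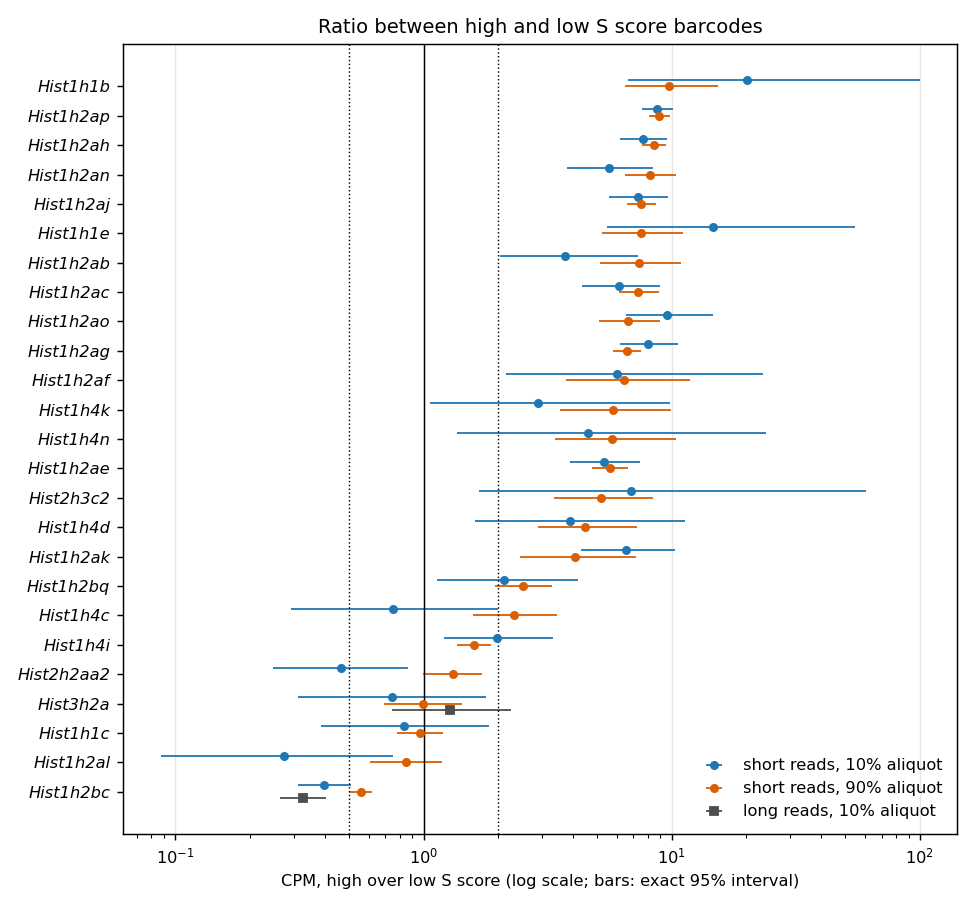
Ratio of CPM between barcodes of high and low S score for the 25 named clustered histone genes (log scale), with exact 95% intervals as bars, a solid line at 1 and dotted lines at 2-fold either way. Hist1h1b lies at the top and Hist1h2bc at the bottom, below 1 in both short-read tables and in the long reads.

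The ratios also differed with the kind of transcript model, which the choice of members did not use. In the 90% table the median ratio was 5.73 over the 17 members whose model ends within 100 bases of the stem-loop, 4.22 over 24 without a match, 3.46 over 16 whose model runs over 100 bases past and 2.52 over 5 with an intron. Each group was wide, from 1.31 to 8.89 in the first and from 0.97 to 7.98 in the one with long models. In the barcodes of the 90% table alone the medians were 5.11, 3.76, 4.12 and 1.79, so the order of the middle pair turned.

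A second score summed Ccnb1, Cdc20, Plk1, Aurka, Cenpf and Ube2c, genes whose mRNAs peak towards mitosis. In the 90% table members summed to 767, 1654 and 1413 CPM in the low, middle and high class (1.84-fold from low to high, 1.79 to 1.89), and in the 10% table to 518, 4322 and 2420 CPM (4.67-fold, 4.32 to 5.05). In both tables the middle class was the highest. The 10% ratio was 1.98 with classes cut at the median, and the 5 barcodes with the most member UMIs held 80.7% of those in its high class. Of 62 members 43 were at least 2-fold higher in the high class of the 90% table (7.08% of genes) and 0 lower (7.2%), and 24 of 29 were higher in the 10% table (12.6%) and 1 lower (9.2%). At a 3-fold limit 25 were higher in the 90% table, and with a minimum of 10 or 50 UMIs 37 or 14 in the 10% table. The share of genes at these limits is not given here. Hist1h2bc was again lower, at 83.0 and 51.1 CPM in the 90% table (0.62-fold, 0.55 to 0.69).

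With both scores together, the highest sums lay at a high S score and a middle mitosis score. There members had 2311 CPM (2264 to 2359, 75 barcodes) in the 90% and 5351 CPM (5199 to 5506, 10 barcodes) in the 10% table. Barcodes low in both had 332 CPM (317 to 349, 119 barcodes) and 464 CPM (425 to 506, 22 barcodes). In the 399 barcodes of the 90% table alone, however, the classes of high S score had 1428, 1831 and 1948 CPM from a low to a high mitosis score, so that the middle was not the highest there. Spearman's rho with the mitosis score was 0.23 over 606 and 0.23 over 79 barcodes.

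Barcodes of 3000 to 15000 UMIs held fewer histone UMIs per 1000000 UMIs than the deep ones. Members summed to 631 CPM (613 to 649) over 1391 such barcodes of the 90% table, against 1297 CPM (1284 to 1310) over the 606 deep ones, a ratio of 2.05, or 2.10 in barcodes of that table alone. In the 10% table the sums were 1175 CPM over 178 and 2581 CPM over 79 barcodes, a ratio of 2.20, or 3.63 against barcodes of 3000 to 10000 UMIs. The median shallow barcode had 0 member UMIs in both tables, and the 5 highest held 33.5% and 74.5% of the UMIs of the class in the 90% and 10% tables. Long reads gave 121 and 132 CPM in the shallow and deep barcodes of the 10% aliquot (1.09-fold).

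The shallow level lay below that of barcodes of under 500 short-read UMIs. These had 950 CPM (767 to 1162) in the 90% and 1932 CPM (1565 to 2359) in the 10% table, above the shallow sums. The values rest on 94 member UMIs in 36 of 391 barcodes and on 96 in 38 of 1612. Such barcodes were meant to give the level of RNA from outside cells. In the 10% table, however, 255 of the 1612 were also listed in the 90% table. The 1612 also held 1637283 long-read UMIs beside 49698 short-read UMIs, so this class cannot be taken as free RNA alone. The share of shallow barcodes of the 90% table with a member UMI was 27.2% after thinning to 3000 UMIs, against 62.9% in the deep class of low S score, with median depths of 4742 and 42332 UMIs before thinning. The deep class of low S score, at 456 and 752 CPM, also lay below the level of the barcodes of under 500 UMIs, so a comparison of sums does not tell free RNA from expression, and its share was not tested. The activation list summed to 1086 CPM in the shallow against 696 CPM in the deep barcodes of the 90% table. Of its 6 genes only Myod1 was higher, at 994 against 213 CPM. Myog (37.4 against 74.6 CPM), Rrm2 (29.6 against 240), Mki67 (6.70 against 24.6), Top2a (13.5 against 72.7) and Cdk1 (5.63 against 70.6) were lower. The shallow barcodes also held more of the quiescence list (573 against 41.0 CPM) and of the immune list (325 against 5.49 CPM). The fibroadipogenic list was higher too (593 against 75.7 CPM), mostly through Gsn (304 CPM) and Col3a1 (209 CPM), with Pdgfra at 0. The class is therefore a mixture.

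Member by member, higher levels in the deep class were about as frequent as among all genes, and lower levels were less frequent in the 90% and more frequent in the 10% table. Of 64 members tested in the 90% table, 19 were at least 2-fold higher in the deep class, or 29.7%, beside 27.3% of genes, and 5 lower, beside 19.5%. Of 48 tested in the 10% table, 16 were higher (29.3% of genes) and 16 lower (16.4%). At a 3-fold limit, for which the share of genes is not given here, 6 and 9 were higher in the 90% and 10% tables. H2A was higher in the deep class, 2.65-fold in the 90% and 3.14-fold in the 10% table, and so were Hist1h1b (6.21-fold, 3.93 to 10.4) and Hist1h4i (4.67-fold, 3.60 to 6.15) in the 90% table. H3 was not, at 1.01-fold (0.89 to 1.15) in the 90% and 0.48-fold in the 10% table. H4 differed between the tables, at 1.11-fold (1.01 to 1.21) in the 90% and 0.61-fold (0.51 to 0.73) in the 10% table. In barcodes of the 90% table alone H4 was 1.31-fold higher (1.17 to 1.46). Hist1h2bc had 70.7 CPM in the deep and 54.0 in the shallow barcodes of the 90% table (1.31-fold, 1.18 to 1.46).

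Genes that process or regulate histone mRNA had a lower median ratio between the S score classes than the members. Of 16 on the list 15 were tested in the 90% table, where 6 were at least 2-fold higher (7.15% of genes) and 0 lower (6.66%), with a median ratio of 1.86. Slbp, whose product binds the stem-loop, had 49.6 CPM in the low and 138 CPM in the high class (2.78-fold, 2.49 to 3.10) and Eri1, an exonuclease that acts on the stem-loop, 13.8 and 31.9 CPM (2.31-fold, 1.87 to 2.86). Cyclin E and its kinase, which activate histone transcription, were higher by 13.5-fold for Ccne2, 4.93-fold for Ccne1 and 3.50-fold for Cdk2, and Cpsf3, the cleavage nuclease, by 2.18-fold. Npat, the coactivator at histone loci, had 5.10 and 8.80 CPM (1.73-fold, 1.20 to 2.52), and the U7 snRNP proteins Lsm10 and Lsm11 were at 0.89-fold and 1.57-fold.

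Of 15 histone chaperone genes tested in the 90% table, 6 were at least 2-fold higher (7.15% of genes) and 0 lower (6.66%), with a median of 1.84. They were Chaf1b (16.8-fold, 10.3 to 29.2) and Chaf1a (5.28-fold) of the CAF-1 complex, which deposits new histones at replication, Asf1b (6.36-fold), the acetyltransferase Hat1 (5.26-fold), Nasp (4.41-fold) and Hirip3 (2.39-fold). Other genes that carry or deposit new histones were under 2-fold, with Rbbp4, also of CAF-1, at 1.46-fold, Asf1a at 1.70-fold and the importer Ipo4 at 0.95-fold. Hira, Daxx and Atrx, which place the replication-independent H3.3, were at 0.80-fold, 0.93-fold and 0.95-fold, with each interval including 1.

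The variant histone genes, which are not named as cluster members and give mostly polyadenylated mRNA, differed less between the classes. Of 11 tested in the 90% table, 3 were at least 2-fold higher (7.15% of genes) and 0 lower (6.66%), with a median of 1.40. The 3 were H2afy2 (2.90-fold), H2afx (2.70-fold) and H1f0 (2.02-fold). H2afz, for the variant H2A.Z, had 1371 and 2298 CPM in the low and high class (1.68-fold, 1.64 to 1.71), above the sum of all clustered members in either class of that table. In the 10% table it had 875 and 1766 CPM, above the members in the low but below them in the high class. The H3.3 genes H3f3a and H3f3b were at 1.01-fold and 1.34-fold and H2afj at 0.64-fold (0.60 to 0.68). The 10% table had 5 of 13 processing genes, 8 of 15 chaperones and 5 of 10 variants at least 2-fold higher and 0 of any list lower.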

How the data were processed

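The authors deposited UMI counts per gene and barcode for the short reads of both aliquots, made with scPipe, and UMI counts per isoform and barcode for the long reads, made with minimap2 2.17 and FLAMES on GRCm38.p6. The submitters' notes also name Cell Ranger 1.3. The deposited counts were not normalized, and no column holds a comparison of the authors. The deposited isoform annotation gives the supporting reads of each isoform.

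Counts were summed over barcodes with Python 3.11.15, numpy 2.4.6, scipy 1.17.1 and pandas 2.3.3 and divided by all UMIs of the same barcodes (CPM). Sums have exact Poisson, shares exact binomial and ratios exact conditional intervals at 95%. A gene counted as tested where both classes together held at least 20 UMIs, and as higher or lower from a 2-fold ratio, with no p-value. No doublet caller was run, and the deepest 5% of barcodes were left out as an alternative. Score classes were set by the short reads also for the long reads. The functions were tested on simulated data. Named members are the 25 with the highest mean CPM over the 3 tables among those with at least 20 UMIs in any table, and the highest of each type. Hist1h2ai, Hist1h3a, Hist1h2br, Hist1h2be, Hist1h4b, Hist1h1t, Hist1h2aa, Hist1h2ba, Hist2h2aa1 and Hist2h3c1 were named after their values were seen. The members and lists were chosen with earlier results of these data known.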

Additional observations from a re-analysis of the deposited data

How the results depend on the processing

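No paired analysis was possible because the 2 aliquots are parts of 1 capture and no test was made. Of the alternatives tried, 50 values moved by less than their counting interval or, for counts of members, by less than 1.5 times, 49 moved by more and 1 turned its direction; the cause was not tested. The ratio between S score classes stayed above 1 in all 9 alternatives of the 10% and all 10 of the 90% short-read table. It was 4.11 and 2.88 (10% and 90% table) with classes cut at the median, 7.69 and 5.80 with the outer 25% at each end, 3.83 and 2.51 with a score of Mcm2, Mcm3, Mcm4 and Rrm2, 4.33 and 4.26 with barcodes thinned to 20000 UMIs, 6.51 and 4.29 without the deepest 5% of barcodes, and 4.22 and 3.92 without Hist1h2ap, the member with the most UMIs. It was 4.39 in the 10% table with the mean of single-cell CPM, and in the 90% table it was 4.10 from 30000 UMIs and 3.86 without barcodes of both tables, with the 3 classes drawn anew. In the long reads it was 0.31 with the outer 25%, 0.49 with single-cell means and 1.31 without Hist1h2bc, where the direction turned because the remaining UMIs are mostly those of Hist3h2a.

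The mitosis score ratio was 1.98 and 1.65 cut at the median, 3.24 and 2.29 with the outer 25%, 5.35 and 2.02 without the deepest 5%, in the 10% table it was 3.95 thinned, 4.19 from 30000 UMIs and 4.07 without Hist1h2ap, and in the 90% table it was 1.92 without barcodes of both tables. The depth class ratio was 3.63 and 2.89 against 3000 to 10000 UMIs, 2.64 and 1.60 against 5000 to 15000 UMIs, 1.95 and 2.40 with single-cell means and 1.81 and 1.89 without Hist1h2ap, and 1.37 in the long reads against 3000 to 10000 UMIs. Counts of members at least 2-fold higher for the S score in the 10% table were 33 with a minimum of 10 UMIs and 13 with 50, and for the mitosis score 37 and 14. With a 3-fold limit 25 were higher for the mitosis score in the 90% table, and 9 and 6 for the depth class in the 10% and 90% tables. The share of all genes is not given for these limits and minima. Without the member with the most UMIs of each table the sums were 1692, 966 and 19.3 CPM in the 10%, 90% and long-read tables. That member was Hist1h2ap in the short reads and Hist1h2bc in the long reads. The ratio of long to short reads was 0.0791 without Hist1h2ap, with Hist1h2bc kept in the long reads. With all members and only UMIs of genes in both tables as the total it was 0.0315. The share past the stem-loop was 60.6% by supporting reads of the annotation.

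Leaving out barcodes with at least 1000 CPM of the immune list, chosen after seeing the data, removed 1 of 79 deep barcodes in the 10% table and 0 of 606 in the 90% table, and moved no ratio beyond its interval. Barcodes of both tables could not be left out of the 10% table or the long reads, since no deep barcode remained, and thinning was not run for long reads. Depth limits the ratios of single members: 30 of 69 reached 20 UMIs over the S score classes of the 10% table.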

Other observations

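A few shallow barcodes held many histone UMIs. The highest of 3000 to 15000 UMIs had 707 member UMIs of 13538 (52223 CPM) in the 10% table, of which 70.3% were H2A and 12.3% H4, with 0 CPM of the S score. In the 90% table the highest had 548 of 10227 (53584 CPM), 68.8% H2A and 13.1% H4, with 0 CPM of the S score. Each was listed in both short-read tables, so they are not given as separate cells. Whether they are the same barcode was not tested. The median S score of barcodes of 3000 to 15000 UMIs was 0 CPM in both tables. A score of 0 therefore does not set these barcodes apart. Among barcodes in the 90% table alone, those with the most member UMIs had 27815 and 25754 CPM. They held 52.9% and 56.1% H2A, and 13.6% and 11.8% H3. The deep barcode with the most member UMIs had 1621 of 75215 UMIs (21552 CPM), 88.6% H2A and 2.59% H3, with an S score of 505 CPM.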
